A study of Homo sapiens with 8 samples.

Results

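The DUSP, SPRY and SPRED genes that restrain the ERK mitogen-activated protein (MAP) kinase pathway were followed in LNCaP cells, 10 genes of the 28746 tested: DUSP1, DUSP4, DUSP5, DUSP6, DUSP10, SPRY1, SPRY2, SPRY4, SPRED1 and SPRED2. They were found through the RefSeq accession of each array probe and were measured by 11 of the 35363 probes tested, as SPRY4 had 2 probes. LNCaP is an androgen-responsive line from a human prostate cancer metastasis. The cells were kept in RPMI-1640 with 10% fetal bovine serum and transfected in oligofectamin reagent with 30 nM of an siRNA against the transcription factor GATA2 (siGATA2) or of a scrambled siRNA (siControl), and RNA was taken after 72 hours. Each group had 4 one-colour Agilent arrays, which the labels call biological replicates, and both groups shared the transfection. All cells came from 1 line, and the labels name 1 siRNA condition against GATA2.

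ERK is switched on by a cascade that runs from growth factor receptors through RAS, RAF and MEK. Active ERK induces transcripts for proteins that shut the cascade off again, so these genes are widely used as readouts of the pathway. DUSP proteins are phosphatases that remove the activating phosphates from MAP kinases, while Sprouty (SPRY) and SPRED proteins act further up, between the receptors and RAF. In prostate epithelium the pathway works downstream of EGF and FGF receptors.

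The silencing of GATA2 could not be seen on these arrays. The log2 signal of GATA2 was 12.61, 12.54, 11.57 and 11.40 on siGATA2 arrays 1 to 4 and 11.74, 11.28, 11.09 and 11.29 on siControl arrays 1 to 4, a difference of 0.68 (standard error, SE, 0.312, limma adjusted p = 0.153). With array weights the difference was 0.79 (limma adjusted p = 0.0319), past the threshold, and with the spike-in scaling described later it was 0.03 (limma adjusted p = 0.988). Where the probe lies relative to the siRNA target is not known here, and every direction given rests on the labels of the arrays. Probes well above background numbered 34423 to 37025 on the siGATA2 arrays and 24339 to 34860 on the siControl arrays, with siControl arrays 1 and 3 lowest. The LNCaP markers KLK3, KLK2, TMPRSS2, FOLH1, KRT8 and KRT18 were well above background on all 8 arrays. KLK3 and KLK2 differed by -1.63 and -1.84 on the log2 scale (siGATA2 minus siControl, limma adjusted p = 0.0323 and 0.00371). KRT8 differed by 0.56 (limma adjusted p = 0.0281), while TMPRSS2, FOLH1 and KRT18 did not pass the threshold. Of 5 markers of other cells, PTPRC (leukocytes), VWF (endothelium) and COL1A1 (fibroblasts) were also well above background on all 8 arrays, PECAM1 on 1 array only, and COL3A1 was under the filter on dim probes. The log2 signal of PTPRC was 8.81 to 9.11 on the siGATA2 arrays against 7.98 to 8.35, and that of VWF was 8.52 to 8.91 against 9.57 to 9.87. Their part in the results was not tested.

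Of the 10 genes, 5 were higher on the arrays labelled siGATA2 at an adjusted p under 0.05 from limma, namely DUSP1, DUSP5, DUSP6, DUSP10 and SPRED2. One gene, SPRY1, was lower. DUSP4, SPRY2, SPRY4 and SPRED1 did not pass the test. Among all genes tested 12.4% were called higher and 14.2% lower, or 26.6% in either direction. The shares were larger among the 17807 genes with a symbol, to which all 10 belong, with 2712 called higher and 3379 lower. Each of the 6 called genes differed by at least 2-fold, a size at which 4.56% of all genes were called higher and 7.12% lower. The median log2 fold change, the siGATA2 mean minus the siControl mean, was 0.75 over the 10 genes and 0.09 over all genes. In bulk RNA fewer cells of a type and less RNA per cell cannot be told apart.

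**Figure D1:**
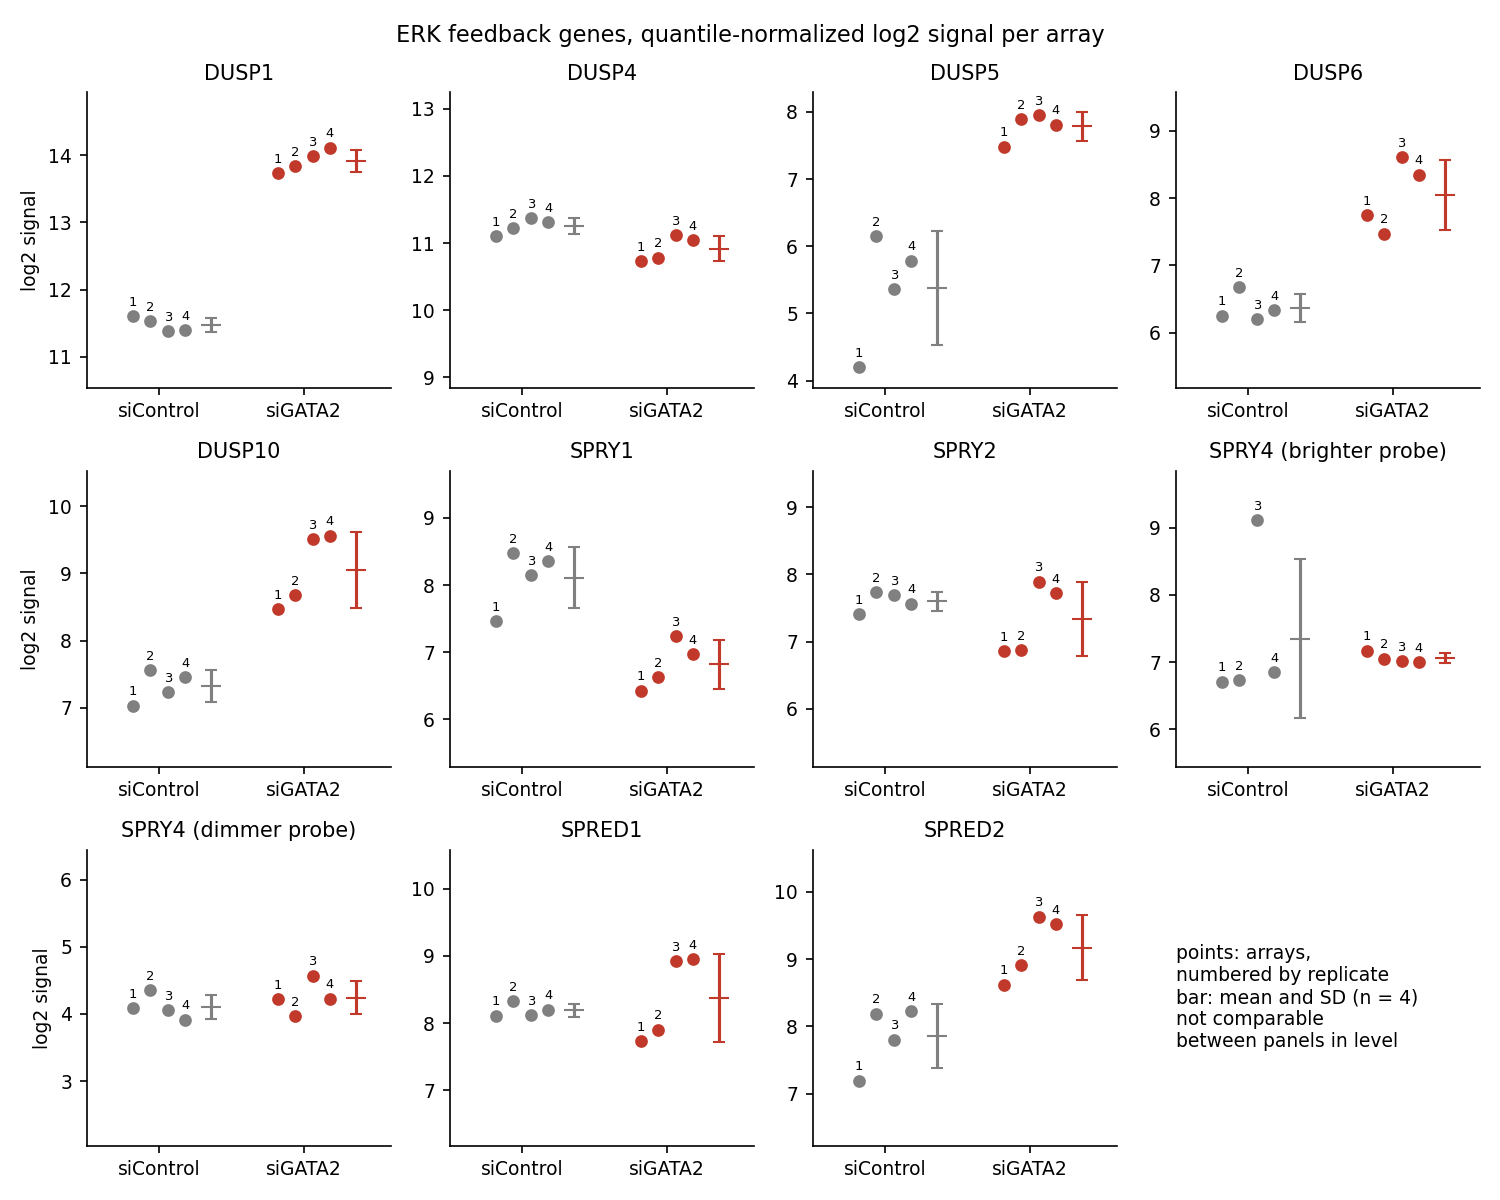
Quantile-normalized log2 signal of each of the 11 probes on each array, by group, with points numbered by replicate and bars giving the mean and SD of 4 arrays; levels cannot be compared between panels. The 4 siGATA2 points lie above all siControl points for DUSP1, DUSP5, DUSP6, DUSP10 and SPRED2 and below them for SPRY1, and 1 siControl point of the brighter SPRY4 probe stands at 9.12.

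The sequence before the transcription start was available from RefSeq (GRCh38.p14) for 8 of the 10 genes, and DUSP4 and DUSP5 had no entry. The 250 bases before the start are shown, 5′ to 3′ on the strand of the gene. They are given for DUSP1, for the phosphatase most specific for ERK and for the 1 gene called lower. The DUSP1 window lies at chr5:172771196-172771445 on the minus strand, DUSP6 at chr12:89352502-89352751 on the minus strand and SPRY1 at chr4:123396545-123396794 on the plus strand. Capitals mark matches to the motifs described after the sequences.
DUSP1: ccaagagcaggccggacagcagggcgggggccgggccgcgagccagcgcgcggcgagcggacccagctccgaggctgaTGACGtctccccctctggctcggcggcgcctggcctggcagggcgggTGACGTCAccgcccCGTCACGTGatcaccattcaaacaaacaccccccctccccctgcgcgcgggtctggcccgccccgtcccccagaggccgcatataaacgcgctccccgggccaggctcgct
DUSP6: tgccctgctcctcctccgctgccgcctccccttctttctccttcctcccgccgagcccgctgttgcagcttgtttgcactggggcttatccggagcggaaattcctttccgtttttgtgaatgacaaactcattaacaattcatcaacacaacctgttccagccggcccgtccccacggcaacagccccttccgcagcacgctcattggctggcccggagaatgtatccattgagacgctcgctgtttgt
SPRY1: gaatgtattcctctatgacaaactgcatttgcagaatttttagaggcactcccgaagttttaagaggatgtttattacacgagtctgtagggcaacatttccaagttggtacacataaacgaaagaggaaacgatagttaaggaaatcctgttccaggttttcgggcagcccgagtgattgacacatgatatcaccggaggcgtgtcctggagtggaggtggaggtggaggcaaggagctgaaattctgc

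On both strands of these windows 5 motifs were searched. The core TGACG of the cyclic AMP response element (CRE) was found in 3 of 8 windows (DUSP1, SPRY2 and SPRY4), against 21.7% of 27305 promoters of the same length. DUSP1 carried 4 matches, whose first bases lay 172, 125, 122 and 111 bases before the start. The E-box CACGTG was found in DUSP1 alone of the 8, 108 bases before the start and overlapping the nearest CRE core, against 6.49% of all promoters. The ETS core CCGGAA, bound by factors that ERK phosphorylates, was found only in SPRY2 (14.8% of all promoters). GATA motifs (AGATAA and also AGATAG, as well as TGATAA and also TGATAG) were found in 0 of 8 windows and in 22.9% of all promoters. AP-1 motifs (TGACTCA and also TGAGTCA) were also found in 0 of 8, against 4.16%. The windows of DUSP6, DUSP10, SPRY1, SPRED1 and SPRED2 held none of the 5 motifs. These letter matches are descriptions and not binding sites.

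DUSP1 is a nuclear phosphatase induced by growth factors and stress, which acts on p38 and JNK as well as on ERK. Its log2 signal was 13.73, 13.83, 13.98 and 14.11 on siGATA2 arrays 1 to 4 and 11.60, 11.53, 11.38 and 11.39 on siControl arrays 1 to 4. The groups stood far apart and each was tight. DUSP1 rose by 2.44 on the log2 scale (SE 0.120, limma adjusted p = 1.78e-05), or 5.43-fold with a 95% confidence interval of 4.48 to 6.58. It was 89th by size of rise among the 17807 genes with a symbol. DUSP5, described next, rose more than DUSP1 with scaling to the 75th percentile (2.74 against 2.38) and to the spike-ins (2.13 against 1.77). It rose less, for example, with normexp background correction (1.33 against 2.41) and with array weights (1.94 against 2.46). Without siControl arrays 1 and 3 it also rose less (1.81 against 2.46), and runs that left out a single array went either way.

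DUSP5 is a nuclear phosphatase with a strong preference for ERK. On siGATA2 arrays 1 to 4 its log2 signal was 7.48, 7.89, 7.95 and 7.81, and on siControl arrays 1 to 4 it was 4.20, 6.15, 5.36 and 5.79. All siGATA2 values lay above all siControl values, which were widely spread, with array 1 lowest. DUSP5 rose by 2.41 (SE 0.390, limma adjusted p = 0.00276), or 5.31-fold with an interval of 2.84 to 9.92. On 2 of 4 siControl arrays, 1 and 3, the probe did not stand well above background. Without those arrays the log2 fold change was 1.81 (limma adjusted p = 0.00166), and with normexp background correction it was 1.33 (limma adjusted p = 0.000411).

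DUSP6 is the cytoplasmic phosphatase specific for ERK and the classical transcript of ERK feedback. Its log2 signal was 7.75, 7.47, 8.61 and 8.35 on siGATA2 arrays 1 to 4 against 6.25, 6.67, 6.20 and 6.34 on siControl arrays 1 to 4. The groups did not overlap, and siGATA2 arrays 3 and 4 were higher than arrays 1 and 2. DUSP6 rose by 1.68 (SE 0.261, limma adjusted p = 0.00224), or 3.20-fold with an interval of 2.11 to 4.87. On siControl array 3 the probe did not stand well above background.

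DUSP10 acts mainly on p38 and JNK. The log2 signal of DUSP10 was 8.47, 8.67, 9.51 and 9.56 on siGATA2 arrays 1 to 4 and 7.03, 7.56, 7.23 and 7.46 on siControl arrays 1 to 4. As for DUSP6, the groups did not overlap and the siGATA2 arrays split into a lower and a higher pair. DUSP10 rose by 1.73 (SE 0.279, limma adjusted p = 0.00267), or 3.32-fold with an interval of 2.13 to 5.20.

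DUSP4, a nuclear phosphatase of ERK, JNK and p38, did not pass the test. Its log2 signal was 10.73, 10.78, 11.12 and 11.04 on siGATA2 arrays 1 to 4 and 11.10, 11.22, 11.37 and 11.31 on siControl arrays 1 to 4. The groups overlapped at siGATA2 array 3 and siControl array 1. The log2 fold change was -0.33, with a 95% interval of -0.63 to -0.04 before adjustment and an adjusted p of 0.0951 from limma. With array weights it was -0.37 (limma adjusted p = 0.0219), past the threshold.

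SPRY1 was the 1 gene of the set that was called lower. Sprouty proteins are phosphorylated after receptor activation and block the signal from the receptor to RAS and RAF. The log2 signal of SPRY1 was 6.43, 6.63, 7.24 and 6.97 on siGATA2 arrays 1 to 4 and 7.46, 8.48, 8.15 and 8.36 on siControl arrays 1 to 4. All siGATA2 values lay below all siControl values, with siControl array 1 the nearest. SPRY1 fell by 1.29 on the log2 scale (SE 0.267, limma adjusted p = 0.00890), or 2.45-fold. It was 1250th by size of fall among the 17807 genes with a symbol.

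SPRY2, the paralog most studied in prostate cancer, had log2 signals of 6.86, 6.87, 7.89 and 7.72 on siGATA2 arrays 1 to 4 and 7.41, 7.73, 7.69 and 7.56 on siControl arrays 1 to 4. Its siGATA2 arrays lay on both sides of the siControl arrays, 1 and 2 below and 3 above all of them. The log2 fold change was -0.26 (limma adjusted p = 0.494), with an interval of -0.87 to 0.34.

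SPRY4 was measured by 2 probes, neither of which passed the test. The brighter probe gave log2 signals of 7.17, 7.05, 7.02 and 7.00 on siGATA2 arrays 1 to 4 and 6.71, 6.73, 9.12 and 6.85 on siControl arrays 1 to 4. One spot, on siControl array 3, lay far above the rest, and all siGATA2 values lay above the other 3 siControl values. Its local background was 293.5 intensity units where the other 7 arrays had 22 to 25, and Feature Extraction marked that background as non-uniform. The log2 fold change was -0.29 (SE 0.522, limma adjusted p = 0.713), 0.30 without siControl array 3 (limma adjusted p = 0.107) and 0.29 with spots so marked left out (limma adjusted p = 0.0946). The dimmer probe gave 4.22, 3.96, 4.57 and 4.23 against 4.09, 4.35, 4.05 and 3.91, with groups that overlapped and a difference of 0.14 (adjusted p = 0.548 from limma over all probes). On 2 of the 4 siControl arrays it did not stand well above background.

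SPRED1 and SPRED2 bind neurofibromin and bring it to RAS at the membrane. The log2 signal of SPRED1 was 7.73, 7.90, 8.92 and 8.95 on siGATA2 arrays 1 to 4 and 8.11, 8.33, 8.12 and 8.20 on siControl arrays 1 to 4. As for SPRY2, siGATA2 arrays 1 and 2 lay below the siControl arrays, and here both arrays 3 and 4 lay above them. The log2 fold change of SPRED1 was 0.19 (limma adjusted p = 0.677), with an interval of -0.51 to 0.88. SPRED2 had log2 signals of 8.62, 8.91, 9.63 and 9.52 on siGATA2 arrays 1 to 4 and 7.19, 8.19, 7.80 and 8.23 on siControl arrays 1 to 4. Its groups did not overlap, with siControl array 1 lowest. SPRED2 rose by 1.32 (SE 0.310, limma adjusted p = 0.0158), or 2.49-fold with an interval of 1.52 to 4.09. It did not pass the test without siControl arrays 1 and 3 (log2 fold change 0.96, adjusted p = 0.0808 from limma).

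For each of the 6 called genes the exact two-sided permutation p was 0.0286, the smallest that 4 arrays against 4 allow. This p-value, like those of limma, treats the 4 arrays of a group as independent. It would be too small if siGATA2 arrays 1 and 2, and likewise arrays 3 and 4, formed pairs, which was not tested. Groups did not overlap in 16.2% of all genes with siGATA2 above and in 16.4% with siGATA2 below, or 32.6% in all. By family, 4 of 5 DUSP genes were called higher, 1 of 3 SPRY genes lower and 1 of 2 SPRED genes higher. Among all genes 12.4% were called higher and 14.2% lower.

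**Figure D2:**
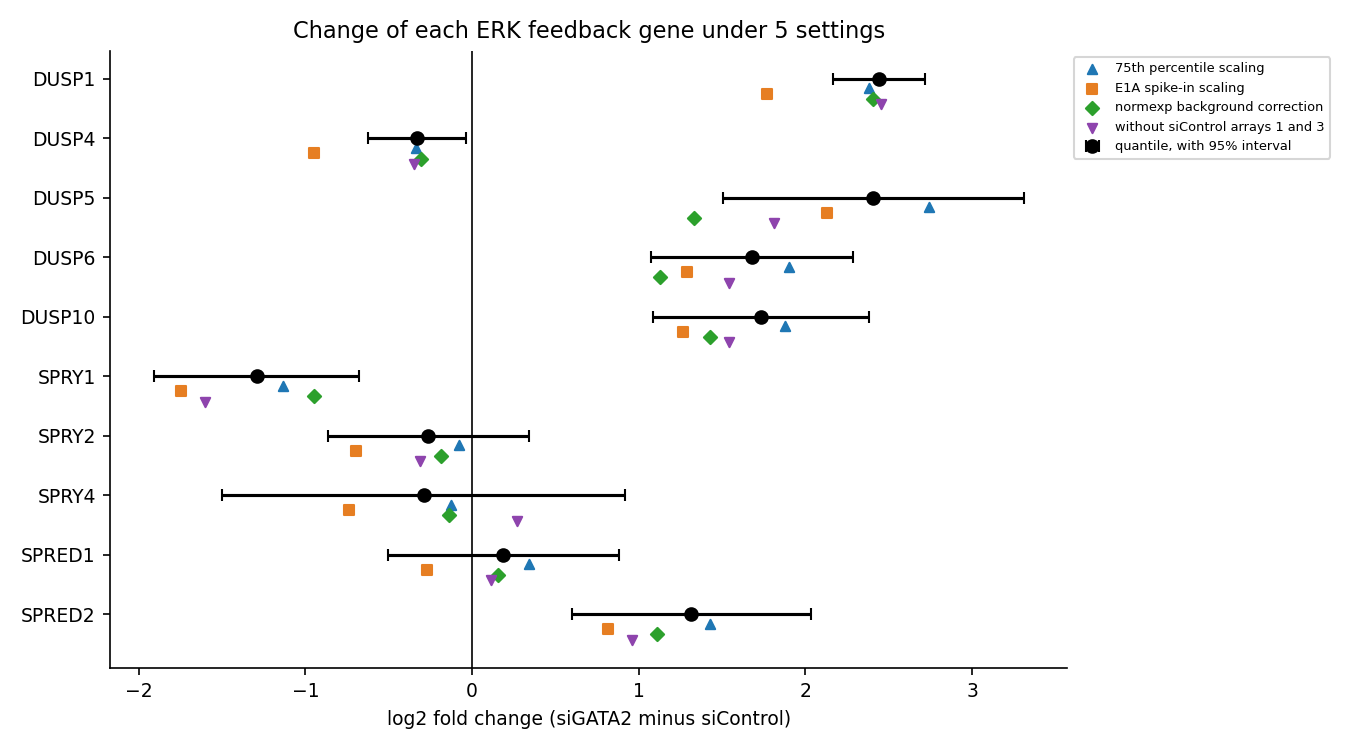
Log2 fold change of each gene (siGATA2 minus siControl, horizontal axis) after quantile normalization with its 95% confidence interval (black) and under 4 other settings (coloured symbols). DUSP1, DUSP5, DUSP6, DUSP10 and SPRED2 stay right of 0 and SPRY1 stays left of 0 in all 5 settings, while SPRY4 and SPRED1 lie on either side.

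Scaling to spiked-in control RNA changed which genes passed. With the arrays scaled to 8 E1A spike-in probes, 2 of the 5 higher genes kept an adjusted p under 0.05 from limma: DUSP1, with a value of 1.77 (adjusted p = 0.0331), and DUSP5, with 2.13 (adjusted p = 0.00619). DUSP6, DUSP10 and SPRED2 were then at 1.29, 1.26 and 0.81 (limma adjusted p = 0.160, 0.147 and 0.369). SPRY1 was at -1.75 (limma adjusted p = 0.0222). This scaling moved the median of all genes to -0.43 and that of the 10 genes to 0.27, and 0.491% of all genes were then called higher and 6.76% lower. The mean log2 signal of all 10 spike-in probes, of which the scaling used 8, was 8.65 on siControl array 1 but 10.56 to 10.96 elsewhere. Without siControl array 1, a combination chosen after the data were seen, the spike-in scaling left 5 genes higher and 2 lower, DUSP4 joining SPRY1 at -0.62 (limma adjusted p = 0.0322). The median of all genes was then -0.01, with 6.30% called higher and 15.7% called lower.

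All arrays lay on 1 slide, in 2 rows: siGATA2 arrays 1 to 3 with siControl array 4, and siGATA2 array 4 with siControl arrays 1 to 3. As the groups of the 6 called genes did not overlap, their direction had to be the same in both rows. Each row compared 3 arrays of 1 group with 1 array of the other. Within the first and the second row DUSP1 differed by 2.46 and 2.61 on the log2 scale, DUSP5 by 1.99 and 2.57, DUSP6 by 1.61 and 1.98, DUSP10 by 1.43 and 2.29, SPRED2 by 0.82 and 1.79, and SPRY1 by -1.59 and -1.06. With the row as a block SPRED2 did not pass the test (1.31, adjusted p = 0.0604 from limma).

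Arrays of the siGATA2 group were not alike in these genes. In 8 of the 10 genes, all but DUSP5 and SPRY4, siGATA2 arrays 3 and 4 both lay above arrays 1 and 2. The same order held in 46.0% of all genes after quantile normalization. It held in 7 of the 10 genes and 36.6% of all genes with scaling to the 75th percentile, and in 6 genes and 25.6% of all genes with the spike-in scaling. The median deviation from the group mean over the 10 genes was -0.35, -0.22, 0.44 and 0.25 on siGATA2 arrays 1 to 4, against -0.05, -0.05, 0.06 and 0.04 over all genes. GATA2 itself had the opposite order, higher on arrays 1 and 2. After quantile normalization 33.3% of all genes and 1 of the 10 genes had that order as well. In SPRY2 and SPRED1 this spread was wider than the difference between the group means. Its source was not tested.

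**Figure D3:**
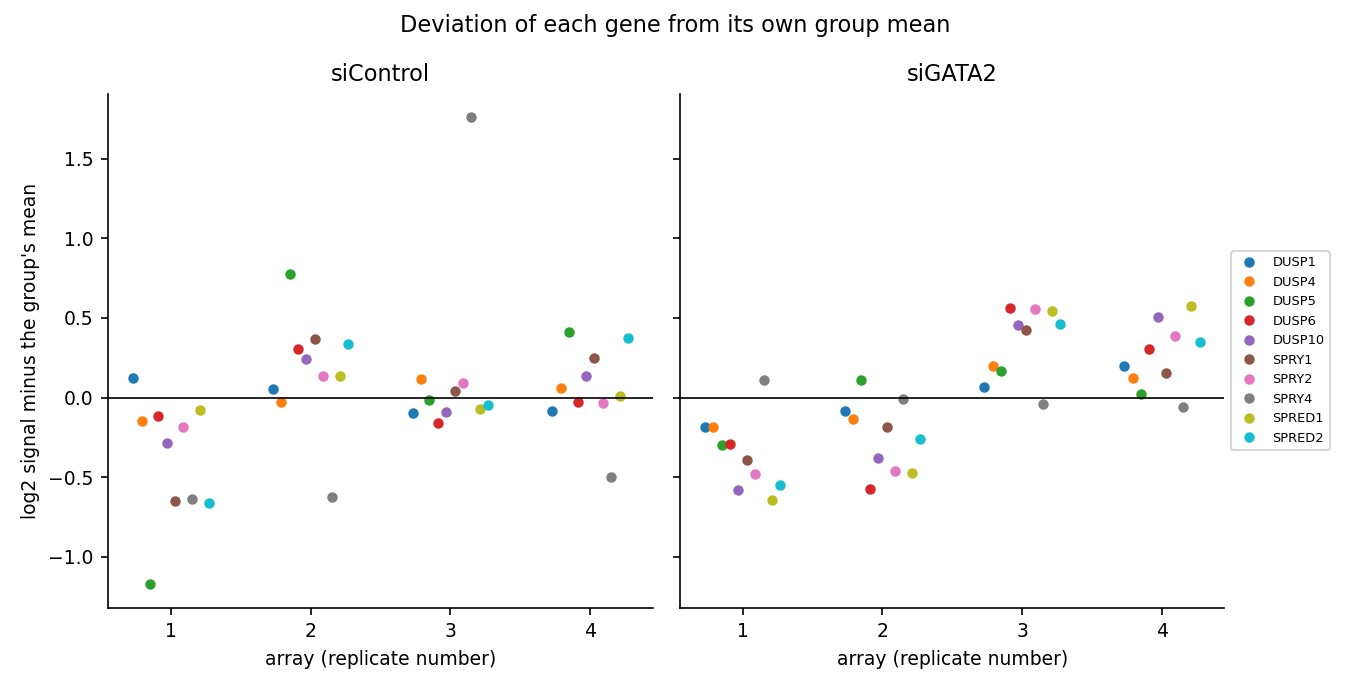
Log2 signal of each gene minus the mean of its own group (vertical axis) on arrays 1 to 4 of siControl (left) and siGATA2 (right), 1 colour a gene. On the siGATA2 side most genes lie below 0 on arrays 1 and 2 and above 0 on arrays 3 and 4, and the point near 1.8 on siControl array 3 is the SPRY4 spot with the raised local background.

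Genes of the same pathway were taken from 5 lists. Of the 5 other MAP kinase phosphatases, 3 were lower and 1 was higher, against 14.2% and 12.4% of all genes. The median log2 fold change was -0.68, the value of DUSP7, and -1.01 with the spike-in scaling. DUSP9, a cytoplasmic phosphatase of ERK, had log2 signals of 7.46, 7.31, 7.60 and 7.67 on siGATA2 arrays 1 to 4 and 8.74, 9.19, 9.18 and 9.30 on siControl arrays 1 to 4. Its groups did not overlap, and DUSP9 fell by 1.59 (limma adjusted p = 0.000201). DUSP2, a nuclear phosphatase, fell by 1.21 (limma adjusted p = 0.00423), and DUSP7, which acts on ERK, fell by 0.68 (limma adjusted p = 0.0323). DUSP16, which acts on JNK and p38, rose by 1.18 (limma adjusted p = 0.00952). DUSP2 and DUSP9 kept their call under every alternative run. DUSP7, whose groups overlapped, lost it under several, among them the 75th percentile (-0.39), normexp (-0.28), the slide row block (-0.63) and 6 of the 8 runs that left out 1 array. DUSP16 lost it with the spike-in scaling (0.66) and without siControl arrays 1 and 3 (0.92).

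Of 13 other inhibitors of the ERK pathway tested, 2 were higher, 2 were lower and 9 did not pass, counts near the 12.4% and 14.2% of all genes, with a median of 0.24 that was -0.38 with the spike-in scaling. SPRED3 was not among the genes tested. IL17RD (also called Sef), an inhibitor of FGF signalling and ERK, had log2 signals of 7.67, 7.56, 8.03 and 7.84 on siGATA2 arrays 1 to 4 and 9.96, 9.78, 9.64 and 9.72 on siControl arrays 1 to 4. The groups stood well apart, and IL17RD fell by 2.00 (limma adjusted p = 4.25e-05). RASAL2, a GTPase-activating protein that switches RAS off, fell by 1.13 (limma adjusted p = 0.000721). NF1, which encodes neurofibromin, the partner of the SPRED proteins, rose by 0.83 (limma adjusted p = 0.000351). RASA1, another GTPase-activating protein of RAS, rose by 0.64 (limma adjusted p = 0.0225). IL17RD kept its call under every alternative run. RASAL2, NF1 and RASA1 lost theirs with the spike-in scaling (-1.54, 0.22 and 0.01), and RASA1 also with the slide row block (0.70), without siControl arrays 1 and 3 (0.53), without siGATA2 array 3 or 4 (0.56 in each) and without siControl array 4 (0.65). With normexp RASAL2 was at -0.67. NF1 and RASA1 also lost their call where a fold of at least 2 was required.

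Of the 16 genes of the cascade from GRB2 and SOS to ERK, 14 did not pass the test and 2 were higher, near the 12.4% of all genes (median 0.17, and -0.42 with the spike-in scaling). SOS2, which loads RAS with GTP, rose by 0.89 (limma adjusted p = 0.000642), but was not called with the spike-in scaling (0.34). Of 12 kinases of the neighbouring JNK, p38 and ERK5 pathways, 4 were higher, 3 were lower and 5 did not pass, against 12.4% and 14.2% of all genes (median -0.17, and -0.79 with the spike-in scaling). MAP2K6, which activates p38, fell by 1.84 (limma adjusted p = 2.9e-05), as did MAP2K3, with the same role, by 0.83 (limma adjusted p = 0.000844). MAPK10, a JNK kinase well above background on 2 siGATA2 and 3 siControl arrays, fell by 1.83 (limma adjusted p = 0.00671), but was at -0.50 with normexp and was not called with the 75th percentile (-1.73) or with the mean over probes (-1.21). MAPK11 and MAPK12, p38 kinases, rose by 1.43 and 0.75 (limma adjusted p = 0.00924 and 0.0340), and MAP2K4, an activator of JNK and p38, rose by 1.05 (limma adjusted p = 0.0128). Without siControl arrays 1 and 3 none of these 3 was called (1.46 for MAPK11, 0.62 for MAPK12 and 1.04 for MAP2K4, with limma adjusted p = 0.0531, 0.136 and 0.0713), nor with the spike-in scaling (0.77, 0.15 and 0.37). MAPK12 also lost its call with the methods' t-test, with the replicate number or slide row as a block and in 6 of the 8 runs that left out 1 array. MAP2K3 was not called with the spike-in scaling (-1.55), and MAP2K6 kept its call under every alternative run. Where a fold of at least 2 was also required, SOS2, MAP2K3 and MAPK12 lost their call by definition.

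Of 10 transcripts that ERK is known to raise, other than the feedback genes, 2 were lower, 1 was higher and 7 did not pass, near the 14.2% and 12.4% of all genes (median 0.19, and -0.39 with the spike-in scaling). MYC had log2 signals of 12.30, 12.26, 11.98 and 12.09 on siGATA2 arrays 1 to 4 and 14.98, 14.98, 14.84 and 14.83 on siControl arrays 1 to 4. It fell by 2.75 (limma adjusted p = 1.27e-05), with no overlap between the groups. PHLDA1, a pleckstrin homology-like protein induced by growth factors, fell by 1.68 (limma adjusted p = 0.00292). EPHA2, a receptor tyrosine kinase, rose by 1.65 (limma adjusted p = 0.000186), its signals of 7.99, 8.16, 8.22 and 8.00 on siGATA2 arrays 1 to 4 lying above those of 6.16, 6.78, 6.26 and 6.56 on siControl arrays 1 to 4. On 1 siControl array the EPHA2 probe did not stand well above background, and with the spike-in scaling EPHA2 was not called (1.24). MYC and PHLDA1 kept their call under every alternative run. Neither ETV5 nor EGR3 was among the genes tested. In the 5 lists the spike-in scaling left 0 genes higher after adjustment in limma, and 1 (in the last list) at an unadjusted p under 0.05. It left 2, 1, 0, 2 and 2 lower in the order given, and 2, 3, 2, 5 and 2 at an unadjusted p under 0.05. Without siControl array 1 as well, these counts were 1, 2, 1, 1 and 1 higher and 2, 2, 1, 5 and 2 lower.

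**Figure D4:**
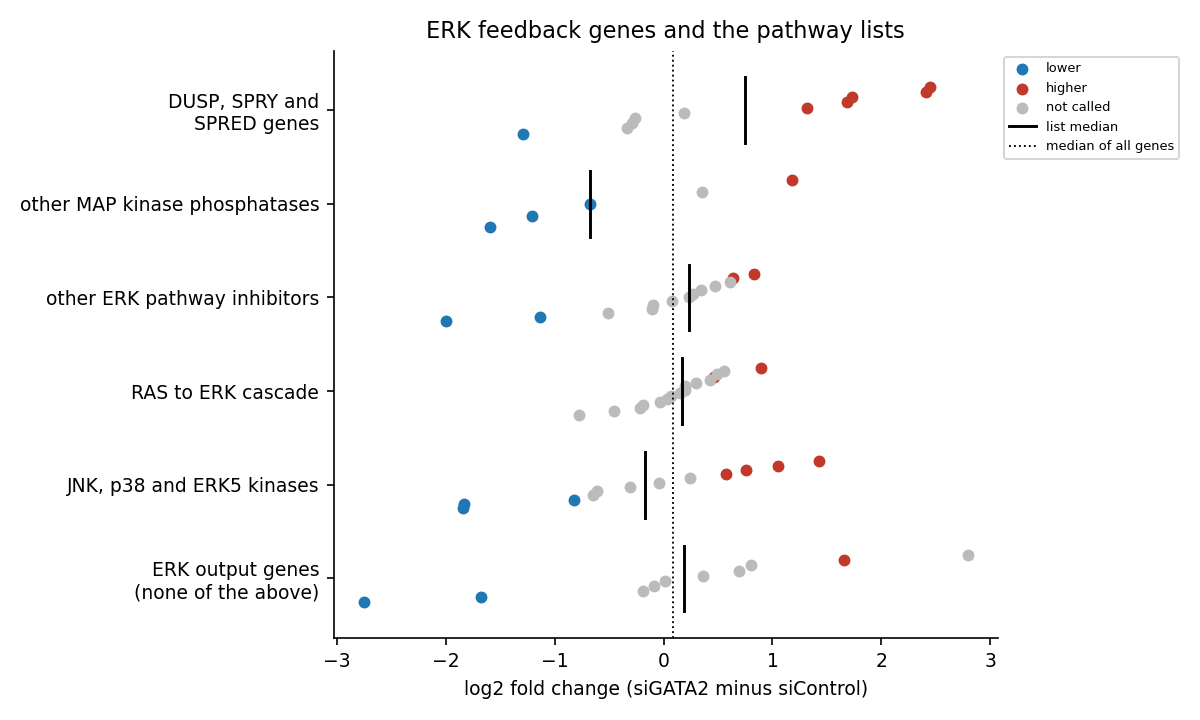
Log2 fold change (siGATA2 minus siControl, horizontal axis) of every tested gene of the DUSP, SPRY and SPRED set and of 5 pathway lists, 1 point a gene, coloured by the call at an adjusted p under 0.05, with the list median (bar) and the median of all genes (dotted line, 0.09). The DUSP, SPRY and SPRED set has 5 genes called higher, 4 genes below 0 and a median of 0.75 (0.27 with the spike-in scaling), and all 6 rows have points on both sides of 0.

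The genes whose values over the 8 arrays lay nearest to those of DUSP1, by the mean absolute difference of mean-centred log2 signals, were PPP2R5B at 0.0738, TNNT1 at 0.0960 and AMOTL2 at 0.102. Their log2 fold changes were 2.48, 2.60 and 2.24. The nearest to SPRY1 were STAMBPL1 at 0.0783, ZNF473 at 0.0832 and APOL4 at 0.0838. These had log2 fold changes of -1.22, -1.34 and -1.15. Nearness of this kind describes the 8 arrays and was not tested.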

How the data were processed

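LNCaP RNA was measured on 8 one-colour arrays, grouped by the sample labels. The authors deposited, per array, the intensity of each spot from Agilent Feature Extraction 11.0.1.1, per the labels, and a matrix of log2 values. The methods give quantile normalization, a filter of 3 on the log2 scale and a t-test. Log2 processed signals were averaged over unflagged spots and quantile-normalized with limma 3.58.1 in R 4.3.3. Probes without annotation, with a mean under 3, or with all spots flagged on an array (209) were dropped, and a gene was read from its brightest probe. Accessions were named through a RefSeq table (GRCh38.p14). Groups were compared with lmFit and eBayes and Benjamini-Hochberg adjustment over all genes, at an adjusted p under 0.05.

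The genes and lists were chosen with earlier results of these data known. The genes named are GATA2, the 10 genes, up to 3 falling and 3 rising called genes of each list, and the 3 genes nearest to DUSP1 and SPRY1. Some genes that this rule or the marker list holds are not reported here. On simulated data for siGATA2 against siControl over 28746 genes, 200 genes were changed and the arrays were drawn independently. There limma recovered 38.5% of 91 genes with a log2 change of 1 and 69.7% of 109 with a log2 change of 2. Of its calls 5.13% were false. In the real data 26.6% of genes were called and the arrays may not be independent, so these rates need not hold there. Arrays have no read depth, and 4 arrays a group limit the precision. Alternatives covered scaling, background correction, filters, probes per gene, variance models, blocks, arrays left out and the methods' t-test. The design number in the array files is not the one in the methods. The authors' other experiments were not analysed here.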

Additional observations from a re-analysis of the deposited data

Results flagged for a closer look

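The signal of the brighter SPRY4 probe on siControl array 3 lay far from the other 3 siControl arrays, at 9.12 on the log2 scale against 6.71 to 6.85. The gap to the nearest array was 0.943 of the range of the group, above the critical value of Dixon's test for 4 samples. It was the only such case among 22 groups of 4 values examined (11 probes in each group), of which chance marks about 1 in 20.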

How the results depend on the processing

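The 10 genes were recomputed under 23 alternatives. DUSP1, DUSP5 and SPRY1 kept their direction and their call in all 23, DUSP6 and DUSP10 in 22 and SPRED2 in 20. The filters, the intensity trend, the methods' t-test and the replicate block left these fold changes as they were, so only the call could change. The mean over probes changed the fold change of SPRY4 alone. The count of higher genes was 5 with quantile normalization, 2 with E1A spike-in scaling, and 4 both with the slide row as a block and without siControl arrays 1 and 3. The count of lower genes was 1, and 2 both with array weights and with the spike-in scaling without siControl array 1, where DUSP4 was added. Leaving out each array in turn gave 5 to 5 higher and 1 to 1 lower. With the replicate number as a block, 5 were higher and 1 lower. Deviations of same-numbered arrays correlated at 0.54, -0.31, 0.17 and 0.23, so the numbers were not taken to pair the arrays. The log2 fold change ran from 1.33 (normexp) to 2.74 (75th percentile) for DUSP5, from 1.13 (normexp) to 1.90 (75th percentile) for DUSP6 and from -1.75 (spike-in) to -0.95 (normexp) for SPRY1. The normexp offset of 50 shrinks folds of dim probes by construction. SPRY4 and SPRED1 changed sign, without being called, between -0.74 and 0.30 and between -0.27 and 0.40. A block for the slide could not be fitted, as there was only 1. Signal over background was lowest on siControl arrays 1 and 3.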

Other observations

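Immediate early transcripts that were not called varied among arrays of 1 group. The log2 signal of FOS was 11.32, 7.23, 5.10 and 5.07 on siGATA2 arrays 1 to 4 and 5.82, 5.20, 1.78 and 4.76 on siControl arrays 1 to 4. Its log2 fold change was 2.79 with an SE of 1.50 (limma adjusted p = 0.219). EGR1 was likewise highest on siGATA2 array 1, at 9.57, 8.01, 7.67 and 7.76 against 7.74, 7.61, 7.05 and 7.39 (limma adjusted p = 0.204). In DUSP1, also an immediate early gene, siGATA2 array 1 had the lowest value of its group. FOS and EGR1 were chosen after their values were seen.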
